A study of Mus musculus with 7 samples.

Results

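The creatine (Cr) genes of the mouse cerebral cortex were followed by name: *Slc6a8*, which encodes the Cr transporter, *Gatm* and *Gamt*, which encode the enzymes of Cr synthesis, and *Ckb*, *Ckmt1*, *Ckm* and *Ckmt2*, which encode the creatine kinases. All 7 of these genes have a row among the 24346 genes of the table and were chosen for their role in the pathway, with earlier results of these data known. Bulk RNA-seq had been performed on the cerebral cortex of C57BL/6J background males at postnatal day 100, with 1 library from each animal. Of the 7 animals, 4 were Slc6a8 KO (CrT-/y, replicates 0 to 3), in which exons 5 to 7 of the X-linked *Slc6a8* are missing in the germline, and 3 were their wild-type littermates (CrT+/y, replicates 1 to 3). The deletion is constitutive rather than limited to a cell type, and the labels give no treatment for either group. The series describes the animals of each group as biological replicates.

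Cr is made in 2 steps. GATM, a mitochondrial enzyme, moves the amidino group of arginine to glycine and releases guanidinoacetate, and GAMT methylates guanidinoacetate to Cr with S-adenosylmethionine. Cells that do not make enough Cr take it up through SLC6A8, which carries it inward together with sodium and chloride. The kinases then move phosphate between ATP and Cr. CKB works in the cytosol of brain cells and CKMT1 between the membranes of their mitochondria, while CKM and CKMT2 are the corresponding cytosolic and mitochondrial enzymes of muscle. In the brain the 2 synthesis enzymes are often found in different cells, and GAMT is abundant in oligodendrocytes.

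The question that the comparison addresses is what the loss of the transporter changes in the cortical transcriptome, so the mutated gene was examined first. *Slc6a8* lies on the plus strand of chrX:73673150-73682502 (GRCm38, the assembly also called mm10). Its GENCODE transcript of 13 exons measures 3314 bp. Exons 5, 6 and 7 of this transcript are all coding, measure 135, 104 and 125 bp, and make up 364 bp or 11.0% of the transcript. They are shown because their absence defines the mutant allele, although the transcript behind the exon numbers of the study was not named. Capitals mark the site of the reverse primer that the study used for qPCR of *Slc6a8*.

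Exon 5, chrX:73678636-73678770: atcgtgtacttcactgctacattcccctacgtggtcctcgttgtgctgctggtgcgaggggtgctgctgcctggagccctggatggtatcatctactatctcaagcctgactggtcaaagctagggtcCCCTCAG
Exon 6, chrX:73678866-73678969: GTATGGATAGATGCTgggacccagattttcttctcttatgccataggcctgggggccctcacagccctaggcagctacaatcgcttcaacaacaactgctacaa
Exon 7, chrX:73679064-73679188: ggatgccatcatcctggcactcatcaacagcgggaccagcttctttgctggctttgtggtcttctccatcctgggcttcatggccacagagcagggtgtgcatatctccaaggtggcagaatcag
Forward primer: tggaagggggtcaagtcaac
Reverse primer: AGCATCTATCCATACCTGAGGG

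The forward primer matched exon 4 at bases 755 to 774 of the transcript. The reverse primer crossed the join of exons 5 and 6 at bases 910 to 931, so its whole site lies in the deleted exons. The wild-type product of this pair measures 177 bp. The FPKM of the gene, by contrast, are computed over all of its exons. The 364 deleted bp leave a remainder of 1 on division by 3, so a transcript that joins exon 4 to exon 8 changes frame. Its first stop codon in frame is in exon 8 after 262 codons, 3 of them beyond the join, against 635 codons in the full reading frame. The 30 bases on each side of this join are shown with the stop codon in capitals. Whether this joined transcript is the one made by the CrT-/y animals was not tested, since the table has 1 value per gene.

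Exon 4 joined to exon 8: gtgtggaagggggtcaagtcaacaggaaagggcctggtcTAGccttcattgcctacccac

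**Figure D1:**
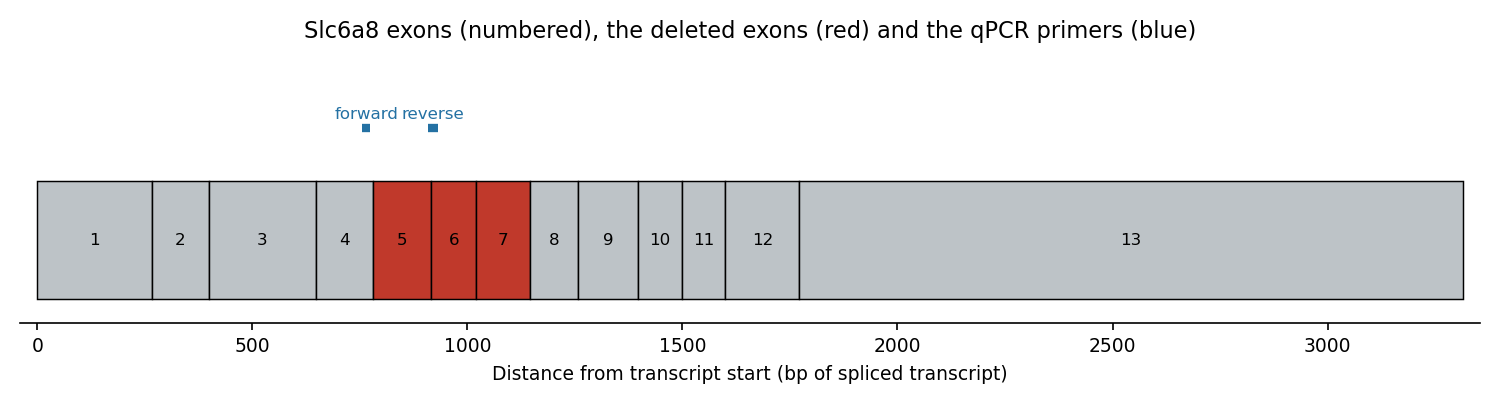
Map of the spliced *Slc6a8* transcript to scale, with the distance from its start in bp on the x axis, exons as numbered boxes, the deleted exons 5 to 7 in red and the qPCR primers in blue. The deleted exons hold 364 of 3314 bp, the forward primer lies before them and the reverse primer lies within them.

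*Slc6a8* RNA was reduced but not lost. It was at 12.4, 14.9, 14.7 and 15.7 FPKM in CrT-/y replicates 0 to 3 and at 32.3, 29.6 and 28.0 FPKM in CrT+/y replicates 1 to 3. FPKM are fragments scaled to the exon length and the mapped reads of the library. The highest mutant lay far below the lowest wild-type animal, so the level of the gene separated all 7 libraries by genotype label. Why the level over all exons fell by more than the 11.0% of the transcript that is deleted was not tested. The mutants averaged 14.4 ± 1.41 FPKM (SD, n = 4) and the wild-type animals 30.0 ± 2.15 FPKM (SD, n = 3), and 48.1% of the wild-type level remained. The log2 fold change of CrT-/y over CrT+/y on the log2(FPKM + 0.1) scale was -1.05 (standard error 0.087, 95% interval -1.25 to -0.86, limma adjusted p = 0.00238). The exact permutation test over the 35 splits of the animals gave a two-sided p of 0.0286, the smallest that 4 animals against 3 allow. Among the 12988 genes tested, those with a mean of at least 1 FPKM, *Slc6a8* had rank 3 by p-value and rank 40 by the size of its log2 fold change. In this bulk tissue, fewer cells that express a gene and less of its RNA per cell cannot be told apart. The capillary endothelium, which carries Cr from blood to brain through SLC6A8, also had mostly lower markers. Of 5 endothelial markers 4 were lower and 1 was higher in CrT-/y animals, *Slco1a4* (log2 fold change 0.15). Called were 3 as lower and 0 as higher, against 7.25% and 2.90% of all tested genes. The median log2 fold change of the 5 markers was -0.31. They summed to 95.8 to 112.2 FPKM in CrT-/y and 111.9 to 131.0 FPKM in CrT+/y animals. The part of these markers in the *Slc6a8* difference was not tested.

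Across the whole pathway, 5 of the 7 genes passed the filter of 1 FPKM and were tested. A gene is named as called here when its limma p-value, adjusted over all 12988 tested genes, is under 0.1. *Slc6a8* and *Ckmt1* were called, both lower in CrT-/y animals, and 0 were called higher. Of all tested genes, 10.1% were called, 7.25% as lower and 2.90% as higher in CrT-/y animals. The split of these calls was 377 higher and 941 lower. It followed the scaling, and was 528 and 555 after quantile normalization, 604 and 499 after upper quartile scaling, 490 and 527 after median centring, and 463 and 626 after a correction for transcript length. All 5 tested genes had a negative log2 fold change, with a median of -0.21 against -0.03 over all tested genes, except that *Gamt* turned to 0.0088 under upper quartile scaling. Groups did not overlap for 3 genes of the pathway, *Slc6a8*, *Gatm* and *Ckmt1*, and for 21.6% of all tested genes (15.0% with the CrT-/y animals lower and 6.57% with them higher). The same 3 genes had an unadjusted limma p-value under 0.05, which 25.0% of all tested genes had.

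**Figure D2:**
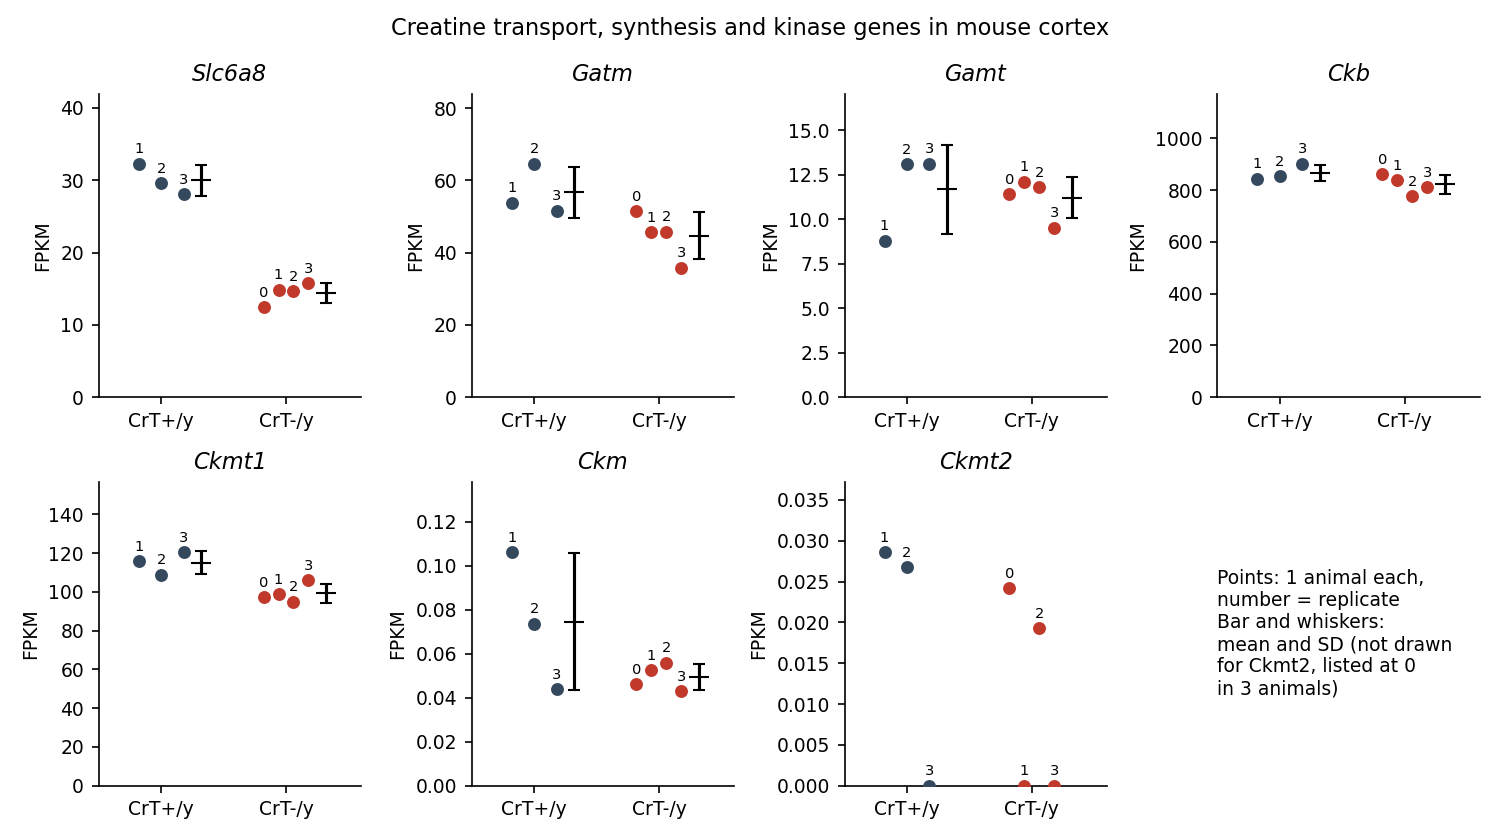
FPKM of the 7 Cr genes on the y axis of each panel, with 1 point per animal labelled by its replicate number and the mean and SD of each genotype beside the points (no mean is drawn for *Ckmt2*, which is listed at 0 in 3 animals). The genotypes are separate for *Slc6a8*, *Gatm* and *Ckmt1* and overlap for the other 4 genes.

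The levels of the pathway differed by orders of magnitude. In FPKM, which are per length, all 7 animals had the order *Ckb*, *Ckmt1*, *Gatm*, *Slc6a8* and *Gamt* from high to low. In CrT+/y animals *Ckb* was at 867, *Ckmt1* at 115, *Gatm* at 56.7, *Slc6a8* at 30.0 and *Gamt* at 11.7 FPKM on average. In CrT-/y animals *Slc6a8* at 14.4 FPKM came close to *Gamt* at 11.2 FPKM, and the ranges of the 2 genes were 12.4 to 15.7 and 9.52 to 12.1 FPKM, without overlap. The spread among CrT+/y animals, as a coefficient of variation, was 3.62% for *Ckb*, 5.10% for *Ckmt1*, 7.19% for *Slc6a8*, 12.3% for *Gatm* and 21.4% for *Gamt*. Among CrT-/y animals it was 4.52%, 4.81%, 9.78%, 14.6% and 10.4% in the same order. Among these 5 tested genes the 2 synthesis genes were thus the most variable in both genotypes and *Ckb* and *Ckmt1* the least.

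*Gatm*, the gene of the first and rate-controlling step of synthesis, was lower in the CrT-/y animals without passing the threshold. It was at 51.4, 45.7, 45.8 and 35.8 FPKM in CrT-/y replicates 0 to 3 and at 53.8, 64.7 and 51.6 FPKM in CrT+/y replicates 1 to 3. The groups did not overlap, but the highest CrT-/y and the lowest CrT+/y animal were only 51.4 and 51.6 FPKM. CrT-/y replicate 3 and CrT+/y replicate 2 stood at the ends of the range. The mutants averaged 44.7 ± 6.52 FPKM (SD, n = 4) and the wild-type animals 56.7 ± 6.99 FPKM (SD, n = 3), a log2 fold change of -0.35 (95% interval -0.62 to -0.07, unadjusted p = 0.0185, limma adjusted p = 0.127). The exact permutation p was 0.0571 (two-sided). Adjusted p-values crossed the threshold without CrT+/y replicate 3 (log2 fold change -0.41, limma adjusted p = 0.0741). The gene lies on the minus strand of chr2:122594467-122611303, and 0 of the 2340 windows of 50 bases in its transcript matched another annotated gene.

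*Gamt*, the methyltransferase of the second step, showed no detectable difference. It was at 11.4, 12.1, 11.8 and 9.52 FPKM in CrT-/y animals against 8.79, 13.1 and 13.1 FPKM in CrT+/y animals. The wild-type group held both the lowest and the highest animals. The mutants averaged 11.2 ± 1.16 FPKM (SD, n = 4) and the wild-type animals 11.7 ± 2.50 FPKM (SD, n = 3), with a log2 fold change of -0.04 (limma adjusted p = 0.889, exact permutation p = 0.771). Its 95% interval, -0.37 to 0.29, includes the log2 fold change of *Gatm*. *Gamt* lies on the minus strand of chr10:80258151-80261012.

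Oligodendrocyte markers varied between the libraries, and the synthesis genes of the animals at the ends of their range are given beside them. The 8 oligodendrocyte markers, among them *Mbp*, *Mog*, *Mag* and *Cnp*, summed to 872 to 1342 FPKM in CrT-/y animals and to 1214 to 1588 FPKM in CrT+/y animals. CrT-/y replicate 3 was the lowest of the 7 animals for 8 of the 8 markers, was the lowest for *Gatm* and had 9.52 FPKM of *Gamt*, above 1 wild-type animal. CrT+/y replicate 1 was among the lowest 2 for 6 of the 8 and was the lowest for *Gamt*, but its *Gatm* of 53.8 FPKM was above that of every animal except CrT+/y replicate 2. CrT+/y replicate 2 was the highest for 5 of the 8 and was the highest for *Gatm*, with *Gamt* at 13.1 FPKM as in CrT+/y replicate 3. With the mean log2 level of these markers as a covariate, an analysis added after the data were seen, the log2 fold change was -0.25 for *Gatm* (limma adjusted p = 0.126) and 0.0675 for *Gamt* (limma adjusted p = 0.734). With limma 0 of the 8 markers were called and 0 had an unadjusted p-value under 0.05. Their median log2 fold change was -0.18, with 7 of 8 negative. The part of the oligodendrocyte markers in the *Gatm* difference was not tested beyond this covariate.

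**Figure D3:**
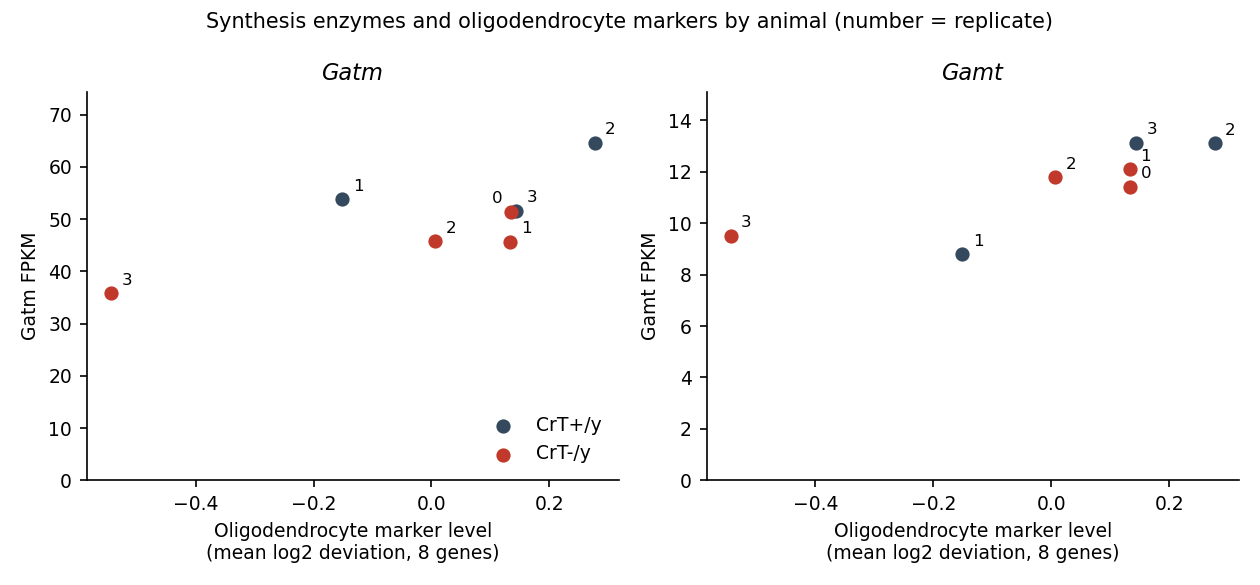
FPKM of *Gatm* (left) and *Gamt* (right) on the y axis against the oligodendrocyte marker level of each animal on the x axis, which is the mean log2 deviation of 8 markers from their mean over the 7 animals; points are animals numbered by replicate. CrT-/y replicate 3 lies far to the left at -0.54 and has the lowest *Gatm* at 35.8 FPKM, and CrT+/y replicate 2 lies farthest to the right at 0.28 with the highest *Gatm* at 64.7 FPKM.

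Among the kinases, *Ckb* took almost all of the transcripts and did not differ beyond its spread. *Ckb* was at 862, 839, 776 and 811 FPKM in CrT-/y animals against 844, 854 and 903 FPKM in CrT+/y animals. CrT-/y replicate 0 was above 2 of the 3 wild-type animals, so the groups overlapped. The mutants averaged 822 ± 37.2 FPKM (SD, n = 4) and the wild-type animals 867 ± 31.4 FPKM (SD, n = 3), a log2 fold change of -0.08 (95% interval -0.22 to 0.07, limma adjusted p = 0.487, exact permutation p = 0.200). In each animal *Ckb* had between rank 16 and rank 23 among all genes by FPKM and held 87.9% to 89.9% of the summed FPKM of the 4 kinase genes. *Ckb* lies on the minus strand of chr12:111669361-111672338. Of the 1423 windows of 50 bases in its transcript, 21.9% also occur in the copies Gm12892, Ckb-ps2 and Ckb-ps1, which have no row in the table. For windows of 150 bases, the length of a read, the share was 7.63%. Because the authors kept uniquely aligned reads, the level of *Ckb* is uncertain. The size of that uncertainty is not known, since these shares count exact matches to annotated transcripts only.

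*Ckmt1*, the mitochondrial kinase, fell. It was at 97.2, 98.7, 94.9 and 106 FPKM in CrT-/y replicates 0 to 3 and at 116, 109 and 121 FPKM in CrT+/y replicates 1 to 3. All 4 mutants lay below all 3 wild-type animals, and the nearest pair was CrT-/y replicate 3 and CrT+/y replicate 2. The mutants averaged 99.2 ± 4.77 FPKM (SD, n = 4) and the wild-type animals 115 ± 5.88 FPKM (SD, n = 3), 86.2% of the wild-type level. The log2 fold change was -0.21 (standard error 0.0595, 95% interval -0.35 to -0.08, limma adjusted p = 0.0770, exact permutation p = 0.0571). The call was close to the threshold. It was lost in 13 of 22 alternative analyses, among them quantile normalization (-0.15, limma adjusted p = 0.112) and 5 of the 7 fits without 1 animal, and the log2 fold change was negative in all 22, between -0.25 and -0.15. *Ckmt1* lies on the plus strand of chr2:121357714-121363737. It overlaps *Strc* on the other strand by 10 bp, and *Strc* was at 0.0139 to 0.0895 FPKM.

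Most but not all markers of cortical excitatory neurons had the same sign as *Ckmt1*. Of 7 such markers, 5 were lower in CrT-/y animals and 2 higher, *Neurod2* (0.17) and *Emx1* (0.02). Called were 2 as lower and 0 as higher, against 7.25% and 2.90% of all tested genes. The median log2 fold change of the markers was -0.13. Their summed level was 1554 to 1690 FPKM in CrT-/y and 1566 to 1912 FPKM in CrT+/y animals, so the groups overlapped. With the mean log2 level of these markers as a covariate, again added after the data were seen, *Ckmt1* had a log2 fold change of -0.15 (limma adjusted p = 0.308), *Slc6a8* of -0.96 (limma adjusted p = 0.0449) and *Gatm* of -0.54 (limma adjusted p = 0.130). The number of genes called over the whole table was 63 in that fit. The marker level itself was -0.09 to 0.03 in CrT-/y and -0.06 to 0.21 in CrT+/y animals, so the covariate was not independent of genotype. The part of these markers in the *Ckmt1* difference was not tested beyond this covariate.

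The muscle kinases were at the bottom of the table. *Ckm* was at 0.0462, 0.0526, 0.0559 and 0.0430 FPKM in CrT-/y animals against 0.106, 0.0736 and 0.0440 FPKM in CrT+/y animals. The groups overlapped (exact permutation p = 0.143), and *Ckm* was below the filter and was not tested with limma. It lies on the plus strand of chr7:19404776-19422841 and shares 3952 bp with the antisense gene *A930016O22Rik*, which was at 0.197 to 0.374 FPKM, above *Ckm* in every animal. The sources used here do not give the strand setting of the counting, so reads of the 2 genes may not be told apart. *Ckmt2* (minus strand of chr13:91853387-91876885) was at 0.0242 and 0.0193 FPKM in CrT-/y replicates 0 and 2 and at 0.0286 and 0.0267 FPKM in CrT+/y replicates 1 and 2, and it is listed at 0 in the other 3 animals. Together the 2 genes held 0.0043% to 0.0140% of the summed kinase FPKM. Neither muscle isoform was detected at a level where a change between genotypes could be read.

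**Figure D4:**
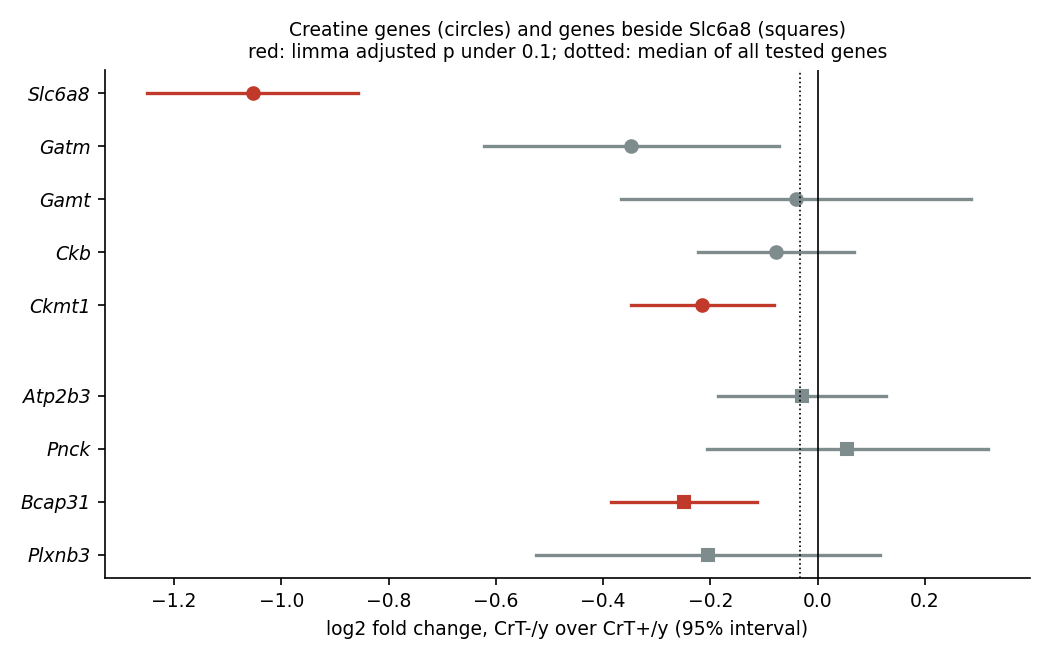
Log2 fold change of CrT-/y over CrT+/y on the x axis with its 95% interval for the 5 tested Cr genes (circles) and for 4 tested genes near *Slc6a8* on chromosome X (squares), red where the limma adjusted p-value is under 0.1. *Slc6a8* at -1.05 stands far from the other genes, and the dotted line marks the median of all tested genes at -0.03.

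A ratio between 2 genes of the same animal does not change when a library is scaled by a single factor, and 3 ratios were compared. *Gatm* to *Slc6a8*, RNA of the first enzyme against RNA of the transporter, was 4.12, 3.06, 3.11 and 2.27 in CrT-/y animals. It was 1.66, 2.18 and 1.84 in CrT+/y animals. The groups did not overlap, and the ratio was on average 1.63-fold higher in CrT-/y animals (log2 difference 0.71, exact permutation p = 0.0571). Its denominator is the mutated gene, so the ratio is no test apart from the fall of *Slc6a8*. *Gatm* itself was lower in CrT-/y animals (log2 fold change -0.35). *Gamt* to *Gatm*, the second enzyme against the first, was 0.223, 0.266, 0.259 and 0.268 in CrT-/y and 0.165, 0.204 and 0.256 in CrT+/y animals. These groups overlapped (log2 difference 0.31, exact permutation p = 0.114). *Ckmt1* to *Ckb*, mitochondrial against cytosolic kinase, was 0.113, 0.118, 0.122 and 0.131 in CrT-/y and 0.137, 0.128 and 0.134 in CrT+/y animals. CrT-/y replicate 3 was above CrT+/y replicate 2 in this ratio (log2 difference -0.14, exact permutation p = 0.0857). As a share of summed kinase FPKM, *Ckmt1* was 10.1%, 10.5%, 10.9% and 11.6% in CrT-/y animals and 12.1%, 11.3% and 11.8% in CrT+/y animals. None of the 3 ratios had an exact permutation p under 0.05. Quantile normalization and the correction for transcript length do change ratios. In the order above, the log2 differences became 0.71, 0.27 and -0.15 with the first and 0.68, 0.24 and -0.18 with the second.

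**Figure D5:**
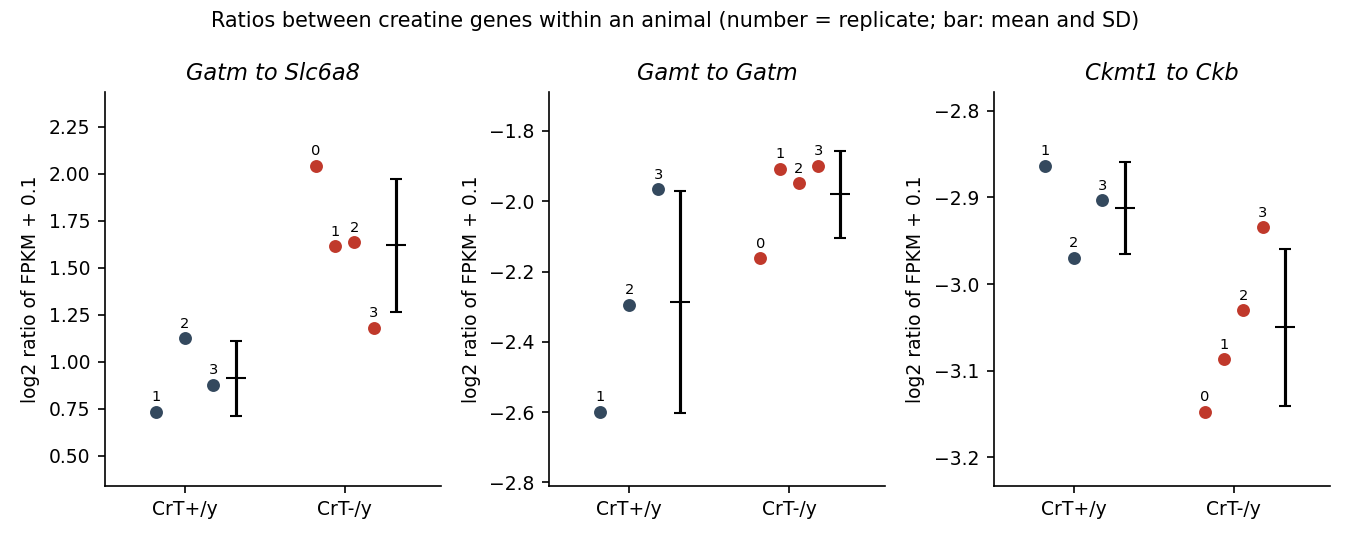
Log2 ratio of 2 Cr genes within an animal on the y axis, after adding 0.1 to FPKM, with 1 point per animal labelled by replicate number and the mean and SD of each genotype. The genotypes are separate for *Gatm* to *Slc6a8* and overlap for the other 2 ratios.

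Genes with a row in the table on either side of *Slc6a8* were examined because they lie near the deletion on the same chromosome. *Bcap31*, which encodes a membrane protein of the endoplasmic reticulum, lies on the minus strand, opposite to *Slc6a8*. The edge nearest to *Slc6a8*, 3676 bp away, is therefore where *Bcap31* ends. *Bcap31* was at 30.7, 32.5, 29.9 and 31.5 FPKM in CrT-/y animals against 34.98, 36.6 and 39.8 FPKM in CrT+/y animals. Its groups did not overlap, as for 15.0% of all tested genes in this direction. The log2 fold change of *Bcap31* was -0.25 (standard error 0.060, limma adjusted p = 0.0586). The call held in 12 of 22 alternatives, but in only 2 of the 7 fits without 1 animal. *Plxnb3* had a log2 fold change of -0.20 (limma adjusted p = 0.401). On the other side, *Pnck* and *Atp2b3* had log2 fold changes of 0.06 and -0.03 (limma adjusted p = 0.797 and 0.826). *Dusp9* was under the filter at 0.374 against 0.260 FPKM. Of these 5 genes only *Bcap31* was called.

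Genes that supply the pathway or stand beside it were read from 6 lists. Together 6 of their 50 tested genes were called, or 12%, close to the 10.1% of all tested genes. These counts turned on single animals. Without CrT+/y replicate 3, where 28.7% of all tested genes were called, the lists for arginine and glycine supply and for methyl donor supply had 2 and 5 calls. The first list had 0 without any other single animal, and the second had 1 without CrT-/y replicate 0 and 0 without any of the remaining 5. Of 15 tested genes for arginine and glycine supply, 0 were called higher and 1 lower, and the median log2 fold change was 0.01. The called gene was *Odc1*, ornithine decarboxylase, at 26.6 against 33.5 FPKM (-0.32, limma adjusted p = 0.0780), with overlapping groups and a call in 7 of 22 alternatives. Of 10 genes for methyl donor supply, 1 was called higher and 1 lower (median 0.01). *Ahcyl1*, a relative of S-adenosylhomocysteine hydrolase, fell from 128 to 104 FPKM (-0.30, limma adjusted p = 0.0553; called in 14 of 22).

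Of other carriers that can move Cr or guanidinoacetate, limma called 0 of 3, and 0 had an unadjusted p-value under 0.05. Among them the taurine transporter *Slc6a6* was at 38.9 against 37.5 FPKM (0.06, limma adjusted p = 0.733) and *Slc16a9* at 1.40 against 1.20 FPKM (0.21, limma adjusted p = 0.459). Of the other tested SLC6 transporters, 2 of 9 were called higher and 0 lower, and all 9 had positive log2 fold changes in the main analysis and under each of the 4 other scalings (median 0.06). The number called was 4 after quantile normalization, upper quartile scaling or median centring and 1 with transcript lengths corrected for. Leaving out 1 animal gave 3 calls without CrT+/y replicate 3, where 28.7% of all tested genes were called. It gave 1 without CrT-/y replicate 2 or 3, and 0 without CrT-/y replicate 1 or CrT+/y replicate 1. *Slc6a20a*, a carrier of proline and related imino acids, was at 11.3 ± 0.872 against 7.26 ± 1.42 FPKM, with separate groups (0.65, limma adjusted p = 0.0338; called in 19 of 22), and its span overlaps other annotated genes. *Slc6a13*, a GABA transporter that is also a marker of meningeal cells, was at 6.97 ± 1.40 against 4.88 ± 0.618 FPKM (0.49, limma adjusted p = 0.0869; called in 7 of 22). The other 5 meningeal markers had positive log2 fold changes (median 0.28), but with limma 0 were called and 0 had an unadjusted p-value under 0.05. They summed to 37.3 to 54.9 FPKM in CrT-/y and to 29.2 to 50.7 FPKM in CrT+/y animals, and their part in the *Slc6a13* difference was not tested. *Slc6a18* is listed at 0 in all 7 animals.

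The partners of mitochondrial creatine kinase, the adenine nucleotide and phosphate carriers and the porins of the mitochondrial membranes, had positive log2 fold changes for 6 of 6 genes (median 0.10), in the opposite direction to *Ckmt1*, in the main analysis and under each of the 4 other scalings. With limma 0 of the 6 were called and 1 had an unadjusted p-value under 0.05, and 1 was called under upper quartile scaling. Without CrT+/y replicate 3, 4 of the 6 were called, all higher in CrT-/y animals, and 0 without any other single animal. *Vdac1* was at 239 ± 2.69 against 219 ± 8.36 FPKM with separate groups (0.13, limma adjusted p = 0.173), and *Slc25a4* at 453 ± 4.61 against 450 ± 29.1 FPKM (0.01, limma adjusted p = 0.940).

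Adenylate kinases and AMP deaminases, which also balance adenine nucleotides, had 0 of 9 tested genes called higher and 1 lower (median -0.05). *Ak6* was at 7.33, 7.23, 7.43 and 6.89 FPKM in CrT-/y animals against 10.6, 11.6 and 11.6 FPKM in CrT+/y animals. It fell with a log2 fold change of -0.63 (standard error 0.065, limma adjusted p = 0.00597) and was called in 22 of 22 alternatives. *Ak6* shares its span with *Taf9* and *Rad17*. *Taf9* rose from 50.5 to 58.7 FPKM (0.21, limma adjusted p = 0.0908) and *Rad17* was at 6.14 against 6.21 FPKM (-0.02, limma adjusted p = 0.904). How the authors' counting divided reads between overlapping genes is not given in the sources used here, so the value of *Ak6* is uncertain.

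For each tested Cr gene, the 3 genes with the most similar profile over the 7 animals were found by Pearson's r on the log2(FPKM + 0.1) scale, as a description. They were chosen over the same 7 animals. A separation of genotypes or an extreme animal shared with the Cr gene therefore follows largely from the choice. *Slc6a8* was most like *Smarca4* (r = 0.992), 9330159F19Rik (0.988) and 2810006K23Rik (0.988), all 3 with lower levels in every CrT-/y than in every CrT+/y animal. Of all tested genes, 15.0% were separate in this direction. *Gatm* was most like *Plekhb1*, *Necab1* and *Gjc3* (r = 0.994 for each), which were all lowest in CrT-/y replicate 3 and highest in CrT+/y replicate 2. *Gamt* was most like *Litaf* (0.984), *Hapln2* (0.983) and *Cacna2d3* (0.961), all 3 lowest in CrT+/y replicate 1. *Ckb* was most like *Sptlc1* (0.971), *Bcar3* (0.944) and *Osgep* (0.942), and *Ckmt1* most like *Taf6* (0.985), *Cobl* (0.984) and *Shroom2* (0.984), and these 6 genes were all lowest in CrT-/y replicate 2.

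The libraries were highly correlated but differed in other general features. Pearson's r between 2 libraries over the tested genes was 0.979 to 0.990. The number of genes above 0 FPKM was 17612 to 17821 in CrT-/y and 17207 to 17477 in CrT+/y animals, without overlap. Markers of cortical excitatory neurons were abundant in all of them, as the tissue label requires. Markers of striatum, which lies under the cortex, had 0 of 6 members called and 6 of 6 higher (median log2 fold change 0.81) with sums of 105 to 263 FPKM in CrT-/y and 55.1 to 223 FPKM in CrT+/y animals, and those of olfactory bulb had 2 of 4 tested members called higher, with sums of 16.5 to 32.1 in CrT-/y and 10.6 to 16.6 FPKM in CrT+/y animals. Choroid plexus and ependymal markers summed to 397 FPKM in CrT+/y replicate 2 and to 8.76 to 55.2 FPKM in the other 6 animals. Inhibitory neuron markers had 1 of 7 called higher and mural markers 1 of 6 called lower. Over all tested genes, 2.90% were called higher and 7.25% lower in CrT-/y animals. With limma 0 markers of astrocytes, oligodendrocyte precursors, microglia, choroid plexus, blood and skeletal muscle were called, and 1, an astrocyte marker, had an unadjusted p-value under 0.05. Skeletal muscle markers summed to 3.27 to 5.09 FPKM. With the striatal marker level as a covariate, added after the data were seen, *Slc6a8* stayed called (log2 fold change -0.999, limma adjusted p = 0.0181) and *Ckmt1* did not (-0.19, limma adjusted p = 0.173).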

How the data were processed

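The authors prepared mRNA libraries from total RNA of the cortex of 7 animals, sequenced them in paired-end mode, mapped the reads to mm10 and annotated transcripts by the Tuxedo protocol (the submitters' processing notes name Bowtie and Cuffnorm), kept unique alignments with at most 2 mismatches, and deposited FPKM for each gene and animal. Versions and the strand setting are not given in the sources used here. The deposited FPKM are not counts, the depth behind a value is not known from them, and 0 columns of the table were left unused.

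FPKM were put on the log2 scale after adding 0.1. Genes averaging 1 FPKM or more were compared between genotypes with limma 3.58.1 (R 4.3.3), with a variance trend. P-values were adjusted by Benjamini-Hochberg over every tested gene, and genes were called at an adjusted p under 0.1. The step was tested on simulated data with independent noise for each gene. Those data hold no tissue differences between libraries, so that test does not cover them. Single values and ratios were compared with exact permutation tests. Other steps used Python 3.11.15. Gene positions, exons and transcripts came from GENCODE M21 (GRCm38), and primers from the study's supplement. The pathway genes, the lists and the rule for naming genes (all pathway genes, called or otherwise the 2 highest genes of each list, the 3 neighbours on each side, the 3 most alike genes) were chosen with earlier results of these data known. *Bcap31* and the genes overlapping *Ak6* got further values after theirs were seen. The closing section gives 12 alternative settings, 3 covariates added later and the fits without 1 animal. Some results of the named genes rule are not reported here. Animals with the same replicate number did not share deviations from their group means (r = -0.08, 0.05 and -0.05). Whether they were related was not tested, since expression values cannot show it.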

Additional observations from a re-analysis of the deposited data

How the results depend on the processing

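*Slc6a8* was called in all 22 alternatives (log2 fold change -1.10 to -0.96; -1.10 to -0.98 without 1 animal) and *Ckb* in none (-0.10 to -0.05 without 1 animal). The 2 called Cr genes became 1 without a filter, with quantile normalization, upper quartile scaling, median centring or no variance trend, and with the striatal or excitatory neuron covariate, and were 1 to 3 without 1 animal (1 without CrT-/y replicate 0, 1, 2 or 3 or CrT+/y replicate 1, 3 without CrT+/y replicate 3, where *Gatm* joined). *Ckmt1* missed the threshold in those 7 settings (log2 fold change -0.21, -0.15, -0.16, -0.18, -0.21, -0.19 and -0.15 in that order) and was at -0.25 to -0.18 without 1 animal. *Gatm* was at -0.42 to -0.24 without 1 animal, and *Gamt* at -0.23 to 0.06, positive without CrT-/y replicate 3 (0.0351), CrT+/y replicate 2 (0.0538) or CrT+/y replicate 3 (0.0555). *Gamt* also turned to 0.0088 under upper quartile scaling, 0.0058 with array weights and 0.0675 with the oligodendrocyte covariate. In the other direction, *Gamt* was at -0.21 with the striatal covariate (limma adjusted p = 0.284) and at -0.33 with the excitatory neuron covariate (limma adjusted p = 0.194). *Ckm* and *Ckmt2* were tested only without a filter (adjusted p = 0.507 and 0.784 with limma). Over all genes, 1318 calls became 730 without a filter, 320 and 63 with the striatal and excitatory neuron covariates, and 64 (without CrT-/y replicate 1) to 3736 (without CrT+/y replicate 3). The cause of these changes was not tested.

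The replicate block drops CrT-/y replicate 0, which has no partner. With the block 576 genes were called over the table, *Gatm* was called (log2 fold change -0.42, adjusted p = 0.0816 with limma) and *Ckmt1* was not (-0.21, adjusted p = 0.149 with limma). With 7 animals and FPKM only, the 95% intervals of *Gamt* and *Ckb* set the size of change that could be missed.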
